A study of Mus musculus with 11 samples.

Results

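The 10 genes described here encode subunits of the AMPA and NMDA receptors: Gria1, Gria2, Gria3 and Gria4 for the AMPA receptor, and Grin1, Grin2a, Grin2b, Grin2c, Grin2d and Grin3a for the NMDA receptor. They were chosen by name, and their rows were found by Ensembl identifier among the 47069 genes counted in mouse retina by RNA-seq. All 10 passed the filter on low counts that 18188 genes passed. Of 11 libraries, 2 came from wild-type retinas and 3 from Brn3b-Kir2.1 retinas at postnatal day 4 (P4), and 3 from each genotype at postnatal day 8 (P8).

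All mice were C57BL/6. Brn3b-Kir2.1 mice carry a transgene of the human potassium channel Kir2.1 fused to eYFP, behind a CAG promoter and a floxed stop cassette, together with Brn3b-cre. Brn3b (Pou4f2) is a transcription factor of retinal ganglion cells. Kir2.1 passes inward-rectifying potassium current and holds neurons near their resting potential. The transgene is therefore limited to the cells in which this Cre has been active, while the RNA came from retinas dissociated whole with no sorting step described. The labels disagree on 3 points. The age field gives day 8 for the later groups, and the extraction protocol gives day 11. The genotype field calls the controls wild type, while that protocol speaks of Brn3b-cre animals. Ganglion cells are given as the source, and retina as the tissue. The field values for age, genotype and tissue are used here. The labels give neither the sex of the mice nor whether the replicates were separate animals or pools. The p-values therefore measure the spread between these libraries, which may be technical.

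AMPA receptors carry most of the fast excitatory current at glutamate synapses and are assembled from 4 subunits. NMDA receptors need glutamate together with glycine or D-serine, are blocked by magnesium at rest, and pass calcium. In the inner retina both act at the synapses that bipolar cells make onto amacrine and ganglion cells, and both are in place while spontaneous retinal waves sweep across the ganglion cell layer. In many brain regions the share of GluN2A over GluN2B in NMDA receptors rises as circuits mature, which is why the Grin2a to Grin2b ratio is given below.

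Gria1 lies on chromosome 11 (57011387 to 57330244), Gria2 on chromosome 3 (80681450 to 80802835), Gria3 on chromosome X (41400854 to 41678601) and Gria4 on chromosome 9 (4417896 to 4796234), in GRCm38. In the same build Grin1 lies on chromosome 2 (25291181 to 25319187), Grin2a on chromosome 16 (9567898 to 9995560) and Grin2b on chromosome 6 (135713233 to 136173511). Grin2c is on chromosome 11 (115249169 to 115267243), Grin2d on chromosome 7 (45831883 to 45878378) and Grin3a on chromosome 4 (49661611 to 49845744).

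The AMPA subunit genes are close copies of each other, and their best-known difference in function turns on 1 codon. The stretch below encodes part of the pore loop and was read from the GENCODE transcripts, with the codon of the glutamine/arginine (Q/R) site in capitals. In Gria2 RNA this codon is recoded from glutamine to arginine by adenosine deamination, and receptors that hold the edited subunit pass little calcium.
Gria1: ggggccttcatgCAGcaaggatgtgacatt
Gria2: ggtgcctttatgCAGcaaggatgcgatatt
Gria3: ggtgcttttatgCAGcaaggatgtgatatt
Gria4: ggtgcctttatgCAAcaaggatgtgacatt

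These 30 bases are at chr11:57243082-57243111 (plus strand, exon 11) in Gria1, chr3:80706896-80706925 (minus strand, exon 11) in Gria2, chrX:41610253-41610282 (plus strand, exon 11) in Gria3 and chr9:4464122-4464151 (minus strand, exon 12) in Gria4. The Gria1 stretch differs from that of Gria2 at 4 bases, the Gria3 stretch at 2 and the Gria4 stretch at 3. The genes themselves encode glutamine at the site in all 4 cases, so gene counts cannot separate edited from unedited Gria2 RNA.

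The longest run of bases that Gria2 and Gria3 transcripts share is shown because reads inside it cannot be assigned to either gene by sequence. It is 56 bases long, at chr3:80691333-80691388 (minus strand, exon 14) in Gria2 and chrX:41654856-41654911 (plus strand, exon 15) in Gria3.
Gria2 and Gria3: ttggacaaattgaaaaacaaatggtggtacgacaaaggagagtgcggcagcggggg

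Gria3 and Gria4 share a longer run, of 57 bases, which is a ct repeat. Gria2 and Gria4 share up to 55 bases in the same way, Gria1 and Gria2 up to 40, and Grin2b and Grin2c up to 34. Antisense genes overlap the exons of Grin1 (1307 bases, Grin1os) and of Grin2d (1171 bases, Gm45441), and Grin2b shares 143 exon bases with Gm14329. The strand setting of the counting is not given in the sources used here. Reads in these shared bases may therefore have been added to the 3 genes or lost from them.

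The libraries held 9362215 to 12478838 counts in genes. Values per library are counts-per-million values (CPM) scaled by the trimmed mean of M-values. Several libraries stood apart in cell type markers before any subunit was considered. In wild-type P4 replicate 2 the 8 markers of dividing cells summed to 887 CPM, against 2003 to 2524 CPM in the other 4 P4 libraries, and the 10 rod markers summed to 1012 CPM, against 180 to 598 CPM. At P8 the rod markers of wild-type replicate 1 summed to 646 CPM, of replicate 2 to 2611 CPM and of replicate 3 to 5947 CPM, beside 5350 to 5745 CPM in the Kir2.1 libraries. The 11 ganglion cell markers were 72.9 to 1144 CPM in sum, the 10 amacrine markers 1488 to 4144 CPM, and no library lacked more than 1 marker of either list, so the RNA had the markers of whole retina rather than of ganglion cells alone. Kir2.1 P8 replicate 2 had counts in 31325 genes, against 22609 to 24591 in the others. Mouse Kcnj2, whose counts may not include the human transgene, ranged at P4 from 5.81 to 10.6 CPM in controls and from 2.46 to 6.42 CPM with the transgene, and at P8 from 3.74 to 17.2 CPM and from 4.91 to 17.1 CPM. The genotypes overlapped at both ages, so this gene does not check the labels. The libraries also differed in sex-linked RNA. Xist, which is expressed from the inactive X chromosome of females, was 532 and 661 CPM in the wild-type P4 libraries and 1493 to 3242 CPM in those of Kir2.1, without overlap, and 494 to 3089 CPM at P8, where the genotypes overlapped. The 4 Y-linked genes summed to 187 and 216 CPM in wild type and 0.691 to 107 CPM in Kir2.1 at P4, also without overlap, and to 0.170 to 251 CPM at P8. The lowest Y-linked sums were in Kir2.1 P4 replicate 2 (9 counts) and wild-type P8 replicate 2 (2 counts). The other libraries each held at least 494 CPM of Xist together with at least 38.3 CPM of Y-linked RNA. That mix points to RNA of both sexes, and so of more than 1 animal, in each of them. The part of sex in the genotype differences below, among them that of the X-linked Gria3, was not tested.

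All 10 subunits were detected in every library, from Grin2c at 0.65 CPM in its lowest library to Gria2 at 683 CPM in its highest. Per kilobase of annotated exon, Gria4 ranked first in each of the 4 groups, followed by Gria2 and then Gria1. Gria4 stood at 42.7 ± 12 CPM per kilobase in wild type at P4 (SD, n = 2), 37.9 ± 2.57 in Kir2.1 at P4, 53.5 ± 19.3 in wild type at P8 and 35.9 ± 7.85 in Kir2.1 at P8 (SD, n = 3 each). Gria2 stood at 29.8 ± 9.91, 25.3 ± 3.30, 34.7 ± 9.90 and 23.9 ± 3.25 CPM per kilobase in the same order. The ranges of Gria4 and Gria2 overlapped in both wild-type groups and not in the Kir2.1 groups, and within each of the 11 libraries Gria4 was the higher.

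Gria3, Grin1 and Grin2b came next and changed places between groups. Their means lay between 5.18 and 14.9 CPM per kilobase, and Gria3 overlapped its neighbour among these genes in every group. Grin1, the subunit that every NMDA receptor needs, was at 9.97 ± 2.98 CPM per kilobase in wild type at P4 (SD, n = 2) and 6.67 ± 1.14 in Kir2.1 at P4, 12.7 ± 3.93 in wild type at P8 and 9.14 ± 2.61 in Kir2.1 at P8 (SD, n = 3 each). Grin2d ranked seventh in all groups, at 1.38 to 2.60 CPM per kilobase. Grin2a, Grin3a and Grin2c were the 3 lowest. Grin2c, a subunit best known from the cerebellum, had 7 to 32 counts in a library, and its level per kilobase was 0.217 to 0.377 CPM.

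The order depends on how length is measured, most of all at the top. Gria2 has 15548 bases of annotated exon and 2649 coding bases, and Gria4 has 6305 and 2706. Per kilobase of coding sequence, Gria2 was first at 140 to 204 CPM and Gria4 second at 83.8 to 125 CPM. On that scale Gria1 held rank 3 only in Kir2.1 at P4, and Grin2d was at rank 8 in both P4 groups. Averaged over the 11 libraries, Gria2 made up 28.9% of the summed AMPA subunit level per exon length and 48.8% per coding length, and Gria4 43.1% and 28.9%. Comparing one gene with itself across libraries does not involve length.

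Within the AMPA family Gria2 took 44.8% to 52.0% of the family's counts in the 11 libraries and Gria4 27.6% to 30.7%. Gria1, whose product forms calcium-permeable receptors when Gria2's is absent, took 7.49% to 14.6%. Gria3 took 7.99% to 14.1%. At P4 the Gria1 share averaged 13.5% ± 1.60 in controls (SD, n = 2) and 13.1% ± 0.805 with Kir2.1 (SD, n = 3), and at P8 10.3% ± 2.69 and 10.3% ± 1.17 (SD, n = 3 each). The Gria3 share was 9.59% ± 1.91 (SD, n = 2) and 8.91% ± 0.998 (SD, n = 3) at P4, and 12.5% ± 1.37 and 11.9% ± 1.89 at P8 (SD, n = 3 each). The Gria3 share was 8.24% and 10.9% at P4 and 11.6% to 14.1% at P8 in wild-type libraries, and 7.99% to 9.97% and 10.1% to 13.9% in Kir2.1 libraries, so the ages did not overlap in either genotype. The Gria1 share overlapped between the ages in wild type and not in Kir2.1, where it was 12.2% to 13.8% at P4 and 9.15% to 11.5% at P8. Neither share was tested, and with so few libraries an exact permutation test of such a separation cannot give a p below 0.1.

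Among the 4 GluN2 genes, Grin2b, whose product gives slow currents and is the main GluN2 subunit of young neurons in many regions, took 82.7% to 89.5% of the counts. Grin2d, another slow and weakly magnesium-blocked subunit, took 4.76% to 8.83%, Grin2a 4.67% to 8.54% and Grin2c 0.35% to 1.54%. The summed CPM of the 4 AMPA genes divided by that of the 6 NMDA genes was 2.20 in wild-type P4 replicate 1, the lowest library, and 2.93 to 3.43 in the other 10 libraries.

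**Figure D1:**
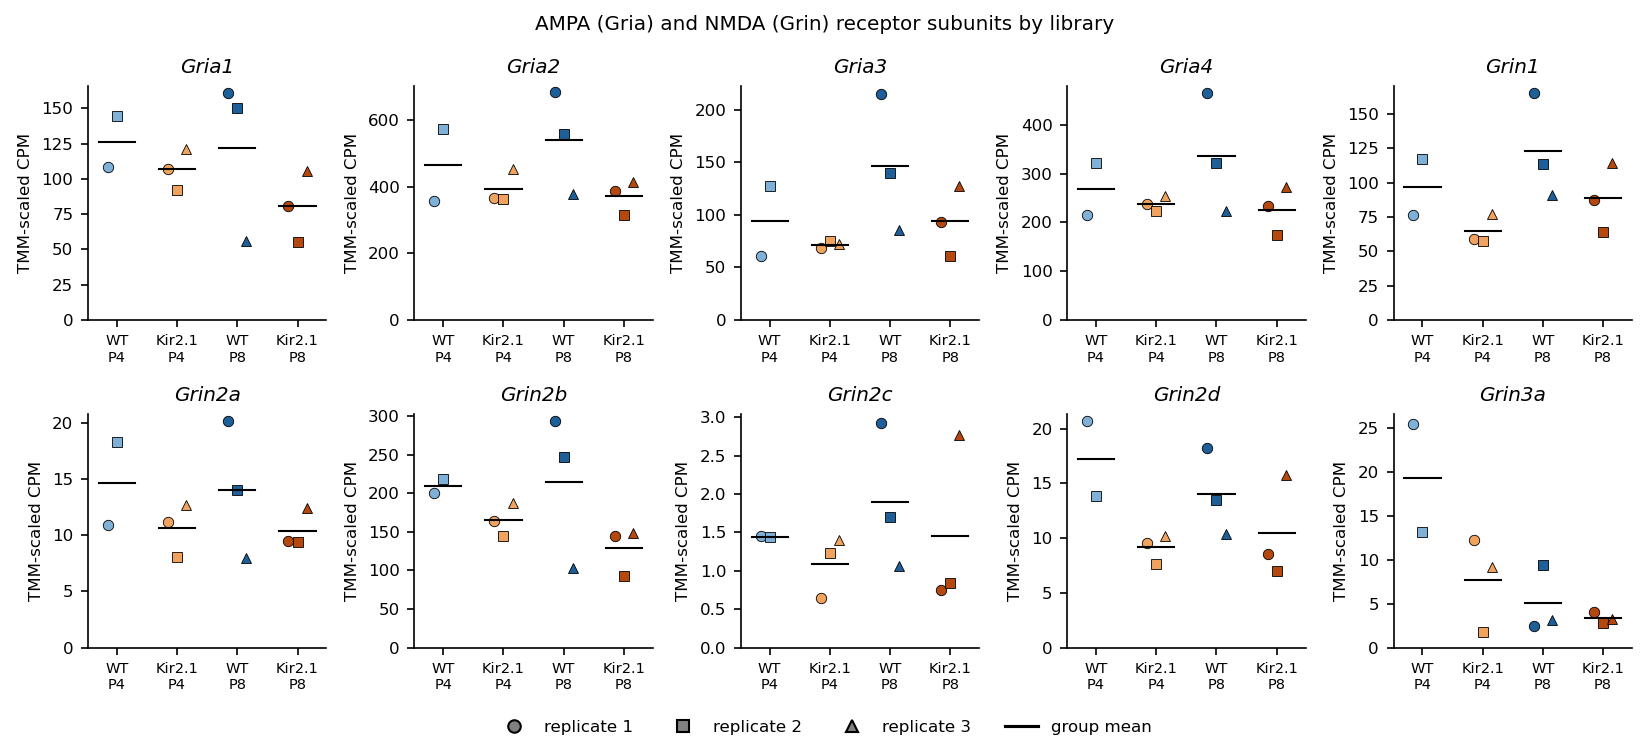
TMM-scaled CPM of the 10 subunit genes on linear axes from 0, with a point for each library and a line at the group mean. Grin3a was highest in the wild-type P4 libraries (25.5 and 13.2 CPM) and at most 9.44 CPM at P8, and wild-type P8 replicate 1 was the highest library for 8 of the 10 genes.

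**Figure D2:**
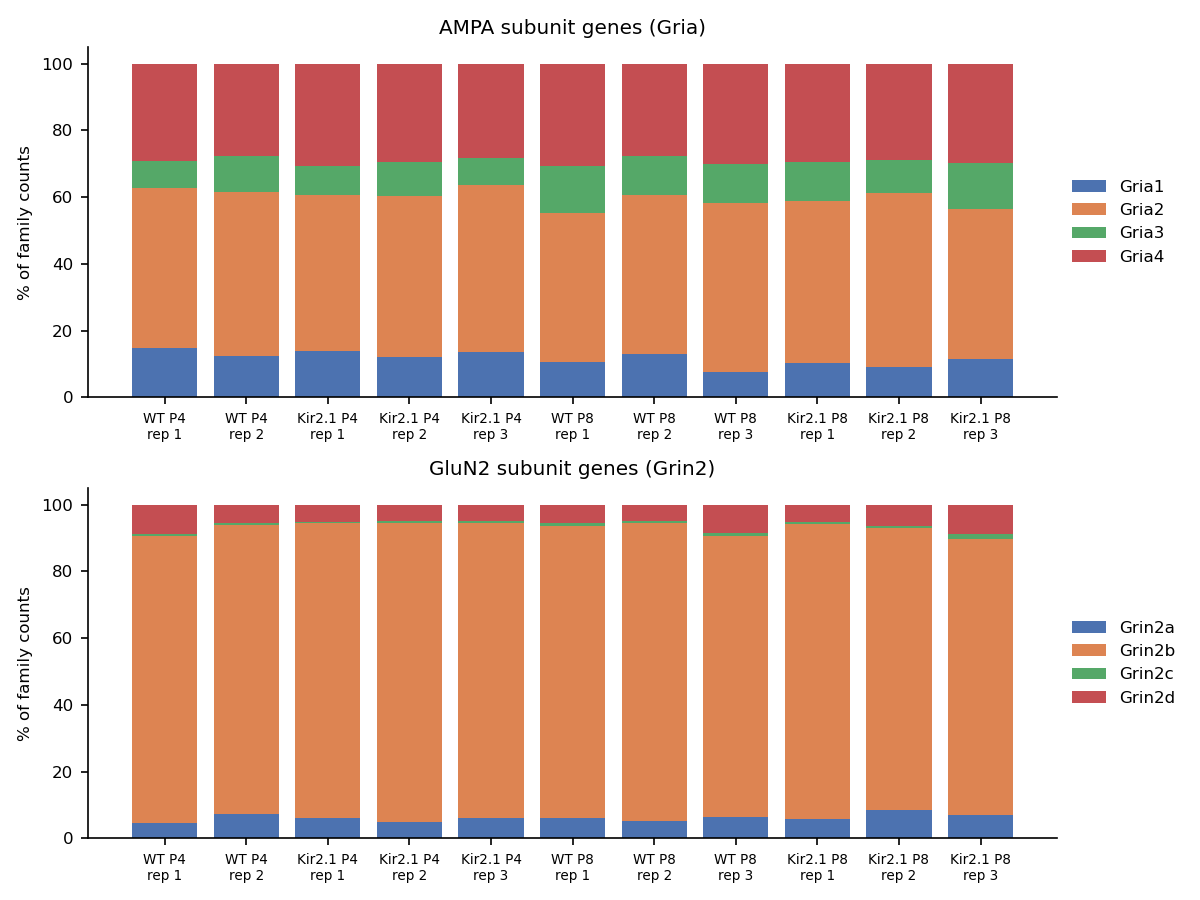
Percent of the counts of each family taken by each gene in each library, AMPA genes above and GluN2 genes below. Gria2 took 44.8% to 52.0% of AMPA counts, and Grin2b 82.7% to 89.5% of GluN2 counts, in all 4 groups.

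The first comparison was between the ages. Grin3a, which encodes a subunit that lowers the calcium permeability and magnesium block of NMDA receptors and is known from young neurons, was the only one of the 10 genes to pass the test, and it fell. The other 9 did not pass. At P4 Grin3a stood at 25.5 and 13.2 CPM with the wild-type genotype and at 12.3, 1.77 and 9.19 CPM with Kir2.1. At P8 it was 2.47, 9.44 and 3.17 CPM in wild type and 4.06, 2.82 and 3.30 CPM in Kir2.1. Both wild-type P4 libraries were above all 6 P8 libraries, which was also so for 11.9% of all genes. Kir2.1 P4 replicate 2 was below every P8 library.

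Averaged over the genotypes, the log2 fold change of Grin3a from P4 to P8 was -1.56 ± 0.46 (SE, edgeR quasi-likelihood test, Benjamini-Hochberg adjusted p = 0.0290), a 2.95-fold lower level. This is 1 call among 10 genes, where 22.8% of the 18188 genes tested were called in this comparison. Wild type alone gave -1.94 (edgeR adjusted p = 0.129) and Kir2.1 alone -1.18 (edgeR adjusted p = 0.244), and the difference between these, 0.76 ± 0.92 (SE), did not pass (edgeR adjusted p = 1.0). Within a genotype 0 of the 10 genes were called, where 4.39% of all genes were called for wild type and 16.7% for Kir2.1. At an unadjusted p under 0.05, 1 of the 10 (Grin3a) was called in the wild-type comparison, where 19.6% of all genes were, and 0 of the 10 in Kir2.1, where 29.7% were. The average over the genotypes stayed negative without each library in turn, but no longer passed the threshold without any 1 of 5 libraries. Without wild-type P4 replicate 1 it was -1.29 (edgeR adjusted p = 0.144), and without Kir2.1 P4 replicate 1 it was -1.33 (0.0783). Leaving out the third Kir2.1 library of P4 gave -1.49 (0.0621), and leaving out the second or the third Kir2.1 library of P8 gave -1.50 (0.0650) and -1.55 (0.0629), close to the value from all 11 libraries. Under limma voom with quality weights it was -1.15 (adjusted p = 0.0878), and with replicate number as a block it was -1.45 (edgeR adjusted p = 0.0758).

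Ganglion cell markers moved the same way as Grin3a. At P4 they summed to 1144 and 721 CPM in controls and to 531, 179 and 567 CPM with Kir2.1, and at P8 to 72.9 to 211 CPM over both genotypes, with 0 or 1 of the 11 markers at 0 in a library (Pou4f3 where there was 1). Kir2.1 P4 replicate 2, the lowest P4 library for Grin3a, was also the lowest P4 library for these markers. Per 100 CPM of ganglion cell markers, a scale chosen after the values were seen and not tested, Grin3a was 2.23 and 1.83 CPM in wild type and 2.31, 0.984 and 1.62 CPM in Kir2.1 at P4, and 1.70, 4.47, 4.35, 2.69, 2.69 and 2.75 CPM at P8. On that scale the P8 libraries were spread around and above the P4 libraries. The part of the ganglion cell markers in the result was not tested, and in RNA from whole tissue fewer cells of a type and less RNA per cell cannot be told apart.

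**Figure D3:**
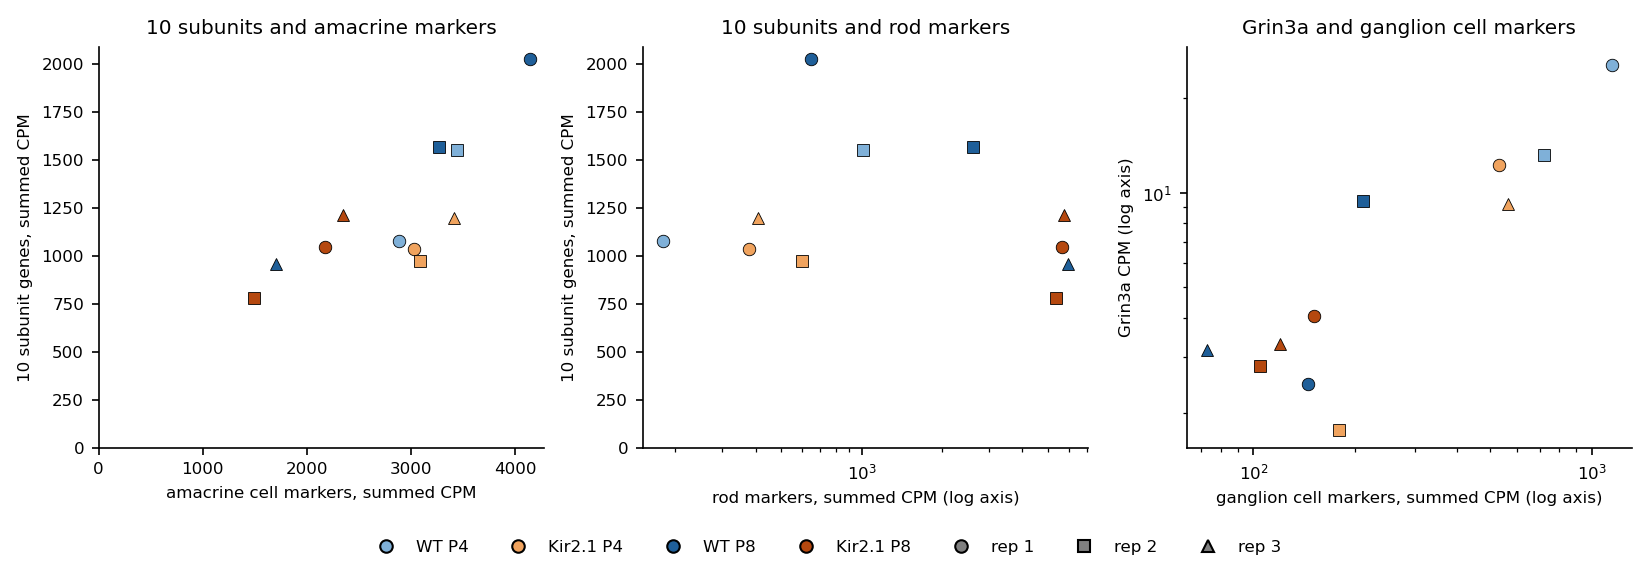
Summed CPM of the 10 subunit genes against the summed CPM of amacrine markers (left, linear axes) and of rod markers (middle, log horizontal axis), and Grin3a CPM against ganglion cell markers (right, log axes), with a point for each library. Wild-type P8 replicate 1 had the highest amacrine sum (4144 CPM) and Kir2.1 P8 replicate 2 the lowest (1488 CPM), and they were also the highest and lowest libraries for the subunits.

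Among the genes that did not pass, the largest average changes with age were in Gria3 and Grin1. Gria3 was 61.0 and 128 CPM in wild type and 68.1, 75.1 and 72 CPM in Kir2.1 at P4, and 215, 139 and 85.9 CPM in wild type and 92.9, 61.1 and 127 CPM in Kir2.1 at P8. The ages overlapped in both genotypes. Its log2 fold change was 0.51 ± 0.26 (SE, edgeR adjusted p = 0.182), with a 95% interval from -0.05 to 1.07. Grin1 was 76.3 and 117 CPM in wild type and 59.2, 57.4 and 77.4 CPM in Kir2.1 at P4, and 165, 114 and 90.7 CPM in wild type and 87.3, 64.1 and 115 CPM in Kir2.1 at P8. Its change was 0.40 ± 0.19 (SE, edgeR adjusted p = 0.159). The other 7 genes had changes between -0.23 (Gria1) and 0.40 (Grin2c). For Gria2 the interval ran from -0.29 to 0.42 and for Gria4 from -0.27 to 0.52.

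Wild-type P4 replicate 2 and wild-type P8 replicate 3 weigh on this result. With both left out, an alternative chosen after seeing the data, 3 of the 10 genes were called in the average age change, where 22% of all genes were: Gria3 rose by 0.96 (edgeR adjusted p = 0.00559), Grin1 rose by 0.66 (0.0252) and Grin3a fell by 1.63 (0.0326). Gria2 and Gria3 were then called higher in the wild-type age change, where 8.7% of all genes were called. With no filter on low counts 36534 genes were tested. Gria3 and Grin3a were then called in wild type (5.63% of the 36534), Grin1 and Grin3a in Kir2.1 (10%) and all 3 on average (12.7%). The average changes of Gria3, Grin1 and Grin3a were 0.51, 0.40 and -1.56 without the filter, as with it. The DESeq2 test called Grin3a in wild type, where it called 8.42% of all genes.

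Grin2a and Grin2b were next set against each other. Grin2a was 10.9 and 18.4 CPM in wild type and 11.2, 8.06 and 12.7 CPM in Kir2.1 at P4, and 20.2, 14.0 and 7.97 CPM in wild type and 9.53, 9.39 and 12.4 CPM in Kir2.1 at P8. Grin2b was 201 and 218 CPM in wild type and 165, 144 and 188 CPM in Kir2.1 at P4, and 293, 247 and 103 CPM in wild type and 145, 92.8 and 149 CPM in Kir2.1 at P8. Both genes varied more between the 3 wild-type P8 libraries than between any other replicates of a group, with replicate 1 the highest and replicate 3 the lowest.

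Over the 11 libraries the ratio varied less than either gene. At P4 the wild-type libraries held 5.44 and 8.41 Grin2a counts per 100 Grin2b counts, and the Kir2.1 libraries 6.78, 5.58 and 6.75. At P8 the values were 6.90, 5.68 and 7.75 without the transgene, and 6.57, 10.1 and 8.35 with it. The group means were 6.92 ± 2.1 (SD, n = 2), 6.37 ± 0.684, 6.78 ± 1.04 and 8.35 ± 1.78 (SD, n = 3 each) in that order. The groups overlapped in each comparison. Per exon length the ratio was 7.54 to 14.0 per 100 in the 11 libraries, so Grin2b was the more abundant transcript at both ages on either scale.

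No difference in the ratio was detected. From P4 to P8 its log2 difference was -0.01 in wild type (exact permutation p = 1.0), 0.37 in Kir2.1 (exact permutation p = 0.3) and 0.18 averaged over the genotypes (exact permutation p = 0.34, 200 relabellings). Between the genotypes it was -0.09 at P4 (exact permutation p = 1.0), 0.29 at P8 (exact permutation p = 0.3) and 0.10 averaged over the ages (exact permutation p = 0.57). These tests were two-sided, and all 12 ratio tests had a Benjamini-Hochberg adjusted p of 1.0. Comparisons of 2 against 3 or 3 against 3 libraries cannot give a p below 0.1, and the averaged ones cannot give a p below 0.005. The highest value, 10.1 in Kir2.1 P8 replicate 2, rests on 90 Grin2a counts and 889 Grin2b counts.

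The Gria2 to other Gria ratio, which sets the subunit that carries the edited pore against the 3 that do not, was 92.4 and 96.3 Gria2 counts per 100 in wild type at P4. It was 88.0, 93.1 and 101 in Kir2.1 at P4, 81.2, 91.1 and 103 in wild type at P8, and 94.8, 108 and 81.7 in Kir2.1 at P8. The 6 log2 differences lay between -0.05 and 0.05, and none passed (exact permutation p of 0.7 to 1.0, adjusted p of 1.0).

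**Figure D4:**
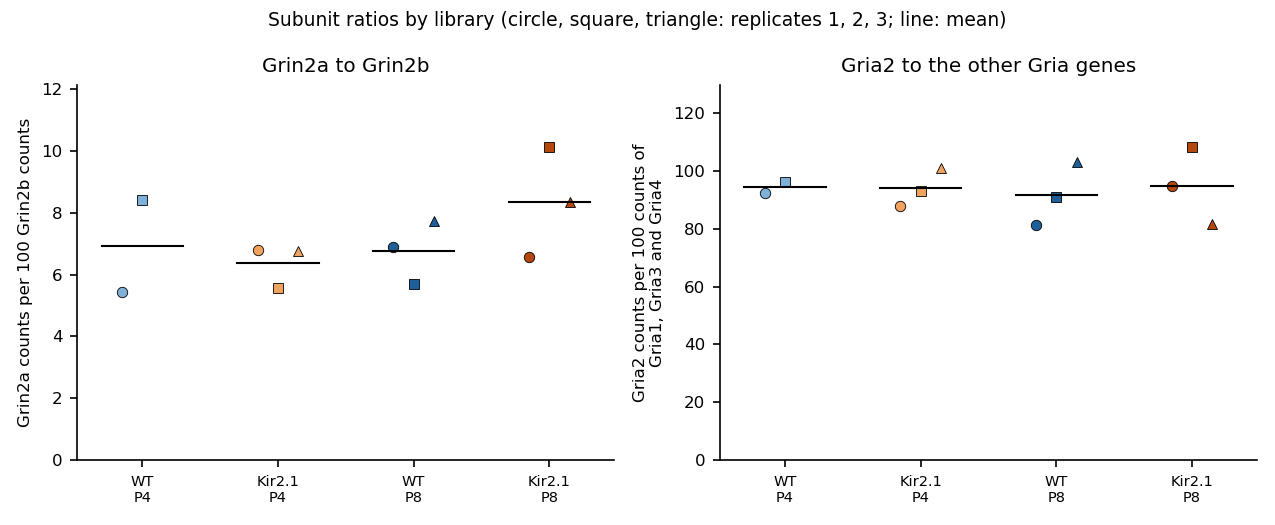
Grin2a counts per 100 Grin2b counts (left) and Gria2 counts per 100 counts of the other Gria genes (right) in each library, on linear axes from 0, with a line at the group mean. Grin2a stayed between 5.44 and 10.1 per 100 Grin2b in all 11 libraries.

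The second comparison was between the genotypes at each age. It bears on the correlated retinal activity named in the series title, since Kir2.1 was directed to ganglion cells. All 10 subunits had a lower fitted level in Kir2.1 than in wild type at P4 and again at P8, and none passed the test at either age. The median log2 fold change of the 10 was -0.40 at P4 and -0.55 at P8, beside 0.01 and 0.003 over all 18188 genes. No gene of the 18188 was called at either age by edgeR, which is 0% at both. The DESeq2 test called 19 genes at P4 and 1 at P8, none of the 10 among them, and limma voom called 0. An unadjusted p under 0.05 was reached by 1314 genes (7.22%) at P4, among them Grin2d as the only one of the 10, and by 1240 genes (6.82%) at P8, among them Gria2, Gria4 and Grin2b. The comparisons at the 2 ages share no libraries, and 30.0% of all genes had a negative fold change at both.

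At P4 the lowest fold changes were in the NMDA genes Grin3a and Grin2d. Grin2d was 20.7 and 13.9 CPM in wild type and 9.58, 7.68 and 10.2 CPM in Kir2.1. The 2 wild-type libraries were above the 3 Kir2.1 libraries, and the log2 fold change was -0.92 ± 0.35 (SE, edgeR adjusted p = 0.677). For Grin3a, whose values are given above, it was -1.33 ± 0.66 (SE, edgeR adjusted p = 0.701). Grin2b (201 and 218 against 144 to 188 CPM) and Grin2c (1.44 and 1.45 against 0.65 to 1.40 CPM) were also lower in all 3 Kir2.1 libraries than in both wild-type libraries. These 4 of the 10 genes compare with 14.4% of all genes that were lower in Kir2.1 without overlap at P4. The summed level of the 11 ganglion cell markers was also lower in Kir2.1 without overlap, at 531, 179 and 567 CPM against 1144 and 721 CPM, and its part in these differences was not tested.

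Gria1 was 108 and 145 CPM in wild type and 107, 92.0 and 121 CPM in Kir2.1 at P4. Gria2 was 355 and 573 CPM against 364, 363 and 452 CPM, and Gria4 215 and 323 CPM against 239, 223 and 255 CPM. In each of these genes the 3 Kir2.1 libraries lay below wild-type replicate 2. They were above replicate 1 for Gria2 and Gria4 and on both sides of it for Gria1. Fold changes of the 4 AMPA genes were -0.17 to -0.40 on the log2 scale (edgeR adjusted p of 0.829 to 0.897). Their direction at P4 rests on wild-type replicate 2: without it Gria2, Gria3 and Gria4 were 0.15, 0.24 and 0.15 higher in Kir2.1, and 7 of the 10 genes remained negative.

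At P8 the lowest fold change was in Grin2b, at -0.73 ± 0.30 (SE, edgeR adjusted p = 0.699). Gria2 was 683, 558 and 377 CPM in wild type and 385, 315 and 413 CPM in Kir2.1, a change of -0.54 ± 0.22 (SE, edgeR adjusted p = 0.699). Gria4 was 466, 322 and 224 CPM against 233, 174 and 273 CPM, a change of -0.57 ± 0.24 (SE, edgeR adjusted p = 0.699). Gria1 was 161, 150 and 55.6 CPM against 80.8, 55.4 and 105 CPM, a change of -0.60 ± 0.33 (SE). In all 4 genes wild-type replicates 1 and 2 were above the 3 Kir2.1 libraries, and wild-type replicate 3 was among them.

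The groups overlapped at P8 for all 10 genes, so that 0 of 10 were lower without overlap, where 5.11% of all genes were. Grin2d was 18.2, 13.5 and 10.4 CPM in wild type and 8.53, 6.99 and 15.8 CPM in Kir2.1, and Grin2c 2.93, 1.70 and 1.06 CPM against 0.745, 0.835 and 2.77 CPM. For these and the remaining genes the fold changes were -0.38 (Grin2c) to -0.65 (Gria3). The 95% intervals at P8 reached down to -1.02 for Gria2 and -1.40 for Grin2b, so a change of 1 log2 unit is within what these libraries allow for both genes.

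The P8 values turn on which wild-type library is used. Without wild-type replicate 3, Grin2b was called at -1.07 (edgeR adjusted p = 0.0351), where 1.21% of all genes were called, and the median of the 10 was -0.77. Without wild-type replicate 1 the median was -0.27, Grin2b was at -0.44 and 9 of the 10 were negative. With wild-type P4 replicate 2 and wild-type P8 replicate 3 both left out, 4 of the 10 were called lower at P8 (Gria1 -0.95, Gria2 -0.74, Gria4 -0.80 and Grin2b -1.07), where 2.72% of all genes were called. With no filter on low counts 36534 genes were tested, among them those with too few counts for the filter. Gria1, Gria2, Gria3, Gria4 and Grin2b were then called lower at P8 (1.22% of the 36534), and Grin3a at P4 (0.928%). The median of the 10 at P8 was -0.56 without the filter and -0.55 with it, so the calls changed while the fold changes hardly did. The difference between the genotypes' age changes, tested in all 11 libraries, was called for 0 of the 10 and 0% of all genes, with 562 genes (3.09%) and none of the 10 at an unadjusted p under 0.05. DESeq2 and limma voom also called 0 genes for this difference, and edgeR with no filter on low counts called 136 of 36534 genes (0.372%), none of the 10 among them. With the filter, leaving out wild-type P4 replicate 1 gave 1 called gene, also none of the 10.

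**Figure D5:**
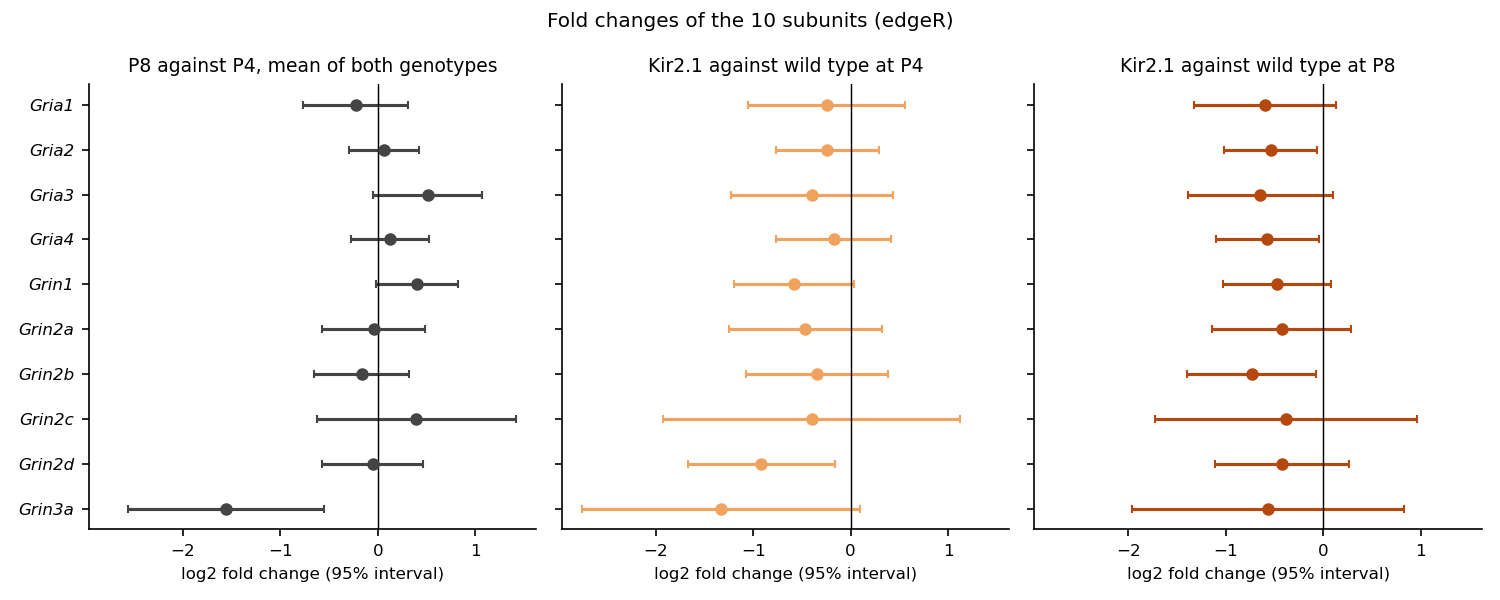
edgeR log2 fold changes of the 10 genes with 95% intervals for the average age change (left) and for Kir2.1 against wild type at P4 (middle) and P8 (right). All 20 genotype estimates lie below 0, and Grin3a (-1.56) is the only gene called, in the age comparison.

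The authors' deposited table for P4 lists Grin1 at a log2 fold change of -0.79 with an adjusted p of 0.0138, the only one of the 10 genes under 0.05. Gria1 is at -0.52 there, with an adjusted p of 0.0869 in the authors' deposited table. Of the genes with an adjusted p in that list, 2.27% were called. The authors' deposited table for P8 has 5 of the 10 under 0.05: Grin2b at -1.06 (adjusted p = 0.000175), Gria2 at -0.74 (0.00115), Gria1 at -0.93 (0.00244), Gria4 at -0.78 (0.00831) and Gria3 at -0.91 (0.0113), where 7.27% of genes were called. All 10 genes are negative at both ages in the authors' deposited tables, and Grin2c has no adjusted p in either. These calls differ from the edgeR fit. For Grin2b at P4 the authors' deposited table states a mean normalized count of 1303, below the 1770 to 2581 counts of every P4 library. How that mean was made is not given in the sources used here, and its part in the different calls was not tested. For Gria1, Gria2, Gria4 and Grin2b at P8 the authors' fold changes lie closer to the reduced fit above than to the full one. That reduced fit leaves out wild-type P4 replicate 2 and wild-type P8 replicate 3, and the reason for the likeness was not tested.

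At P8 the subunit sums were high and low in the same libraries as the amacrine marker sums. The AMPA genes summed to 1525, 1170 and 742 CPM in wild type and 792, 606 and 918 CPM in Kir2.1 at P8, and the amacrine markers to 4144, 3271 and 1703 CPM and 2173, 1488 and 2347 CPM in the same libraries. At most 1 of the 10 amacrine markers was at 0 in a library (Ptf1a at P8, and Chat in 1 P4 library). Rod markers ran the other way in wild type, at 646, 2611 and 5947 CPM, and lay close together in Kir2.1, at 5350 to 5745 CPM, with 0 of the 10 at 0. The part of these markers in the genotype differences was not tested.

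Per 100 CPM of amacrine markers, again a scale chosen after the values were seen and with no test, the genotypes lay close together at P8. The AMPA sum was 36.8, 35.8 and 43.6 CPM in wild type and 36.5, 40.7 and 39.1 CPM in Kir2.1, and the NMDA sum 12.1, 12.2 and 12.7 CPM and 11.7, 11.9 and 12.7 CPM. At P4 the AMPA sum was 25.6 and 34.0 CPM in wild type and 25.6, 24.4 and 26.4 CPM in Kir2.1. The NMDA sum at P4 was 11.6 and 11.1 CPM in wild type and 8.49, 7.15 and 8.76 CPM in Kir2.1, so that the NMDA sum of the Kir2.1 P4 libraries was the lowest of all 4 groups on this scale.

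The genes that varied most like Grin2a and Grin2b over the 11 libraries were found by the root-mean-square difference of centred log2 CPM among 18187 genes. For Grin2a these were Tmem178 (0.133), Snhg14 (0.138) and Insyn1 (0.149), and for Grin2b they were Vsnl1 (0.125), Tppp (0.127) and Gria1 (0.129). Among pairs of subunits the closest were Gria2 and Gria4 at 0.0962, followed by Gria1 and Grin2b at 0.129. Grin3a was the furthest from all others, at 1.02 to 1.38. The measure describes these libraries and shares their depth and cell make-up.

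The partners of these receptors were followed in 6 lists of 73 genes, of which Slc7a10 alone was not tested. The counts below are read against the 22.8% of all genes called in the average age change, 1948 of them higher and 2192 lower. In the average age change, 1 of the 12 AMPA auxiliary subunits rose (Shisa6, 1.67 ± 0.37) and 1 fell (Shisa7, -0.58 ± 0.17), with a list median of 0.32. Both products bind AMPA receptors and shape their kinetics. Of the 12 assembly and synaptic organiser genes, Olfm3 rose (1.82 ± 0.34) and 4 fell, among them Lrrtm1, a synaptic adhesion gene (-0.84 ± 0.15), and Nptxr, the neuronal pentraxin receptor that clusters AMPA receptors (-0.76 ± 0.17), with a median of -0.30. Over all genes the median was 0.02. Marker sums moved in both directions with age. The 8 markers of dividing cells summed to 887 to 2524 CPM at P4 and 85.1 to 132 CPM at P8. For the 11 ganglion cell markers the sums were 179 to 1144 CPM at P4 and 72.9 to 211 CPM at P8. Horizontal cell sums were higher at P8, at 774 to 1576 CPM against 324 to 663 CPM at P4. Bipolar sums were also higher, at 794 to 2488 CPM against 436 to 704 CPM. Rod sums ranged from 180 to 1012 CPM at P4 and from 646 to 5947 CPM at P8. The part of these cell types in the changes of the partner genes here and below was not tested.

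Of the 18 postsynaptic scaffold genes 2 rose and 3 fell, with a median of -0.05, and 5 of 18 is near the share of all genes. Dlg4, which encodes PSD-95, averaged 237 ± 55.3 CPM in controls (SD, n = 2) and 203 ± 25.4 CPM with Kir2.1 (SD, n = 3) at P4, and 327 ± 30.7 and 353 ± 27.7 CPM (SD, n = 3 each) at P8. It rose, with a log2 fold change of 0.63 ± 0.11 (SE, edgeR adjusted p = 0.00138). Grip2, which binds the tails of GluA2 and GluA3, rose by 0.86, while Dlgap3 fell by 0.68 and Homer2 fell by 0.59. Among the 14 tested genes of kinases, RNA editing and co-agonist supply, 4 rose and 3 fell, with a median of 0.04. Slc6a9, the glycine transporter GlyT1, rose by 1.85 and Prkca rose by 1.35. Adarb2, a relative of the editing enzymes, fell by 1.04, and the kinase Fyn fell by 0.63.

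In the kainate and delta list, to which Grin3b was added, 2 of 8 rose and 1 fell, with a median of 0.45: Grik1, the kainate receptor subunit of OFF bipolar cells, rose by 2.22 ± 0.30, Grin3b rose by 2.0 ± 0.51 and Grik4 fell by 0.80. Grin3b reached 2.38 to 7.15 CPM at P8. Of the 8 metabotropic receptor genes 2 were called, a share near that of all genes: Grm5 rose by 1.46 ± 0.29, and Grm6, of ON bipolar cells, had an average change of 6.06 ± 0.99, with a list median of 0.19. Grm6 was 0 and 57.4 CPM in the wild-type P4 libraries, 0.093 to 0.461 CPM in Kir2.1 at P4, and 75.4 to 278 CPM at P8. Its change was 9.50 in Kir2.1 (edgeR adjusted p = 0.00153) and 2.62, not called, in wild type (edgeR adjusted p = 0.202), where wild-type P4 replicate 2 decides the value. Grm6 and Prkca are also in the bipolar marker list, whose sum was 436 to 704 CPM at P4 and 794 to 2488 CPM at P8, and the part of those cells was not tested.

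Between the genotypes 0 of the partner genes were called at either age. Like the subunits, most had negative estimates: 11 of 12 auxiliary subunits at both ages (medians -0.22 and -0.39), 11 of 12 assembly and organiser genes at both ages (-0.35 and -0.32), and 15 and 14 of 18 scaffolds (-0.18 and -0.33). The corresponding counts were 12 and 11 of 14 for kinases, editing and co-agonist supply (-0.22 and -0.19), 5 and 7 of 8 for kainate and delta subunits (-0.10 and -0.20), and 6 and 7 of 8 for metabotropic receptors (-0.41 and -0.41). Over all genes 48.7% were negative at P4 and 49.4% at P8.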

How the data were processed

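The authors deposited 1 table of whole-number counts per Ensembl gene for each library. The submitters' processing notes name cutadapt 1.18, STAR 2.5.0c, SAMtools 1.9, bedtools 2.26.0, HTSeq 0.6.1, DESeq2 and the build mm10 (GRCm38), without roles or order. Records in no gene, 74.6% to 79.8% of each table, were left out. The authors' deposited comparison tables hold, per the file headers, a mean normalized count (signal), a log2 fold change, its standard error, a test score, a p-value and its adjusted form.

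Counts were fitted with edgeR 4.0.16 in R 4.3.3: filterByExpr, TMM factors of 0.964 to 1.05, 4 group means over all 11 libraries, a quasi-likelihood test and Benjamini-Hochberg adjustment over 18188 genes with a threshold of 0.05. The common biological coefficient of variation was 0.247. Ratios used counts plus 0.5. The fit was tested on simulated data. Grin2c had 7 to 32 counts in a library. Symbols matched 46488 of 47069 identifiers. Coordinates, lengths and sequences came from GENCODE vM21.

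The subunits, partner lists and tests were chosen with earlier results of these data known. Named partners were the 2 highest and 2 lowest called genes of each list in the average age change, and all called in a genotype comparison. Alternatives were DESeq2 1.42.0 (size factors and test), limma 3.58.1 voom with quality weights, a minimum mean of 1 CPM in place of the filter, no filter, only the groups compared, a replicate block and leaving out each library. Leaving out wild-type P4 replicate 2 with wild-type P8 replicate 3, and coding length, were added after seeing the data.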

Additional observations from a re-analysis of the deposited data

How the results depend on the processing

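Summed over the libraries, Grin2c had the fewest counts of the 10 genes, at 7 to 32 in each. All 10 subunits stayed negative at P4 and P8 under DESeq2 size factors, the DESeq2 test, voom, both filters, only the groups compared and the replicate block. The deviations of same-numbered libraries from their group means correlated at -0.0757 to 0.139. In groups this small such values cannot decide whether the numbers pair the libraries. With the replicate block 0 of 10 were called in the average age change, where 3721 of 18188 genes were. Grin3a then had an edgeR adjusted p of 0.0758, against 0.0290 and 1 called subunit without the block. No other count of called subunits changed with the block. Where a cause is not named below, it was not tested.

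Counts of called subunits: with no filter 2 in wild-type age, 2 in Kir2.1 age, 3 in average age, 1 at P4 and 5 at P8. Of the 36534 genes then tested, 5.63%, 10%, 12.7%, 0.928% and 1.22% were called in that order. With the DESeq2 test 1 was called in wild-type age (8.42% of all genes), and with voom 0 in average age, where 4713 of 18188 genes were. Leaving out 1 library, other than those of wild-type P4, gave 0 to 1 in average age and 0 to 1 at P8. Over all genes these fits called 3269 to 4417 in average age and 0 to 219 at P8, of 17913 to 18109 tested. Without wild-type P4 replicate 2 and wild-type P8 replicate 3 together, 2 were called in wild-type age, 3 in average age and 4 at P8. Average age changes then turned to 0.059 for Gria1, 0.31 for Grin2a and 0.031 for Grin2b, and P4 genotype changes to 0.14 for Gria2, 0.23 for Gria3 and 0.15 for Gria4.

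Leaving out 1 library turned the sign of these log2 values. Average age: Gria2 -0.088 to 0.26, Gria4 -0.046 to 0.29, Grin2a -0.24 to 0.17, Grin2b -0.33 to 0.0020, Grin2c -0.043 to 0.56, Grin2d -0.27 to 0.10. P4 genotype: Gria2 -0.55 to 0.15, Gria3 -0.84 to 0.24, Gria4 -0.44 to 0.15. P8 genotype: Grin2c -1.26 to 0.08, Grin3a -0.89 to 0.27. Grin2a to Grin2b ratio: wild-type age -0.32 to 0.30, P4 genotype -0.40 to 0.22, genotype over both ages -0.056 to 0.26. Gria2 to other Gria ratio: wild-type age -0.13 to 0.040, average age -0.069 to 0.032, P4 genotype -0.059 to 0.040, both ages -0.031 to 0.071, Kir2.1 age -0.093 to 0.11, P8 genotype -0.054 to 0.15. That ratio also turned to 0.015 in average age per exon length and to -0.035 in Kir2.1 age from summed counts.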
